A study of Mus musculus with 3 samples.

Results

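The 10 genes of a tuft cell programme were followed across the cell types of the mouse gallbladder, out of 31053 genes counted in these libraries. They were chosen by name, for what they are known to do, but with earlier results of these data known. Trpm5, Pou2f3 and Dclk1 belong to the sensing and identity machinery of tuft cells, Il25 and Il17rb to their alarmin axis, and Alox5, Alox5ap, Ltc4s, Ptgs1 and Hpgds to the synthesis of leukotrienes and prostaglandin D2.

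Tuft cells are rare chemosensory cells scattered in hollow epithelia, including that of the gallbladder and bile ducts. A ligand opens the cation channel TRPM5 through a taste-type G protein cascade, and the cell answers by releasing interleukin-25, acetylcholine and eicosanoids, which act on neighbouring epithelium, nerves and immune cells. Eicosanoids are made from arachidonic acid along separate routes: 5-lipoxygenase with its activating protein FLAP and leukotriene C4 synthase gives cysteinyl leukotrienes, while cyclooxygenase-1 followed by hematopoietic prostaglandin D synthase gives prostaglandin D2.

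The study dosed male C57BL/6 mice by oral gavage with nanoplastics for 3 weeks, with nanoplastics for 6 weeks, or with vehicle for 6 weeks, and pooled 10 gallbladders per group into 1 droplet single-cell library each. The material and dose of the particles and the age of the mice are not given in the sources used here. The deposited matrix numbers its libraries 1 to 3 in the cell barcodes, and no label ties a number to an exposure, so the libraries are given side by side and no effect of exposure was tested. Each library is 1 pool, so there is no replicate, and every interval below covers counting error only.

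After filtering, 24993 of 27700 barcodes were kept, with 4263, 10933 and 9797 cells in libraries 1, 2 and 3. Their median depths were 10381, 9330 and 2288 unique molecular identifiers (UMIs, each a counted transcript molecule) per cell. Among kept cells, 43 barcode sequences occurred in more than 1 library, none of them in a tuft cell. Although all mice were labelled male, 119 kept cells of library 1 carried a UMI of Xist, the RNA of the inactive X chromosome, against 14 in library 2 and 27 in library 3. Of those in library 1, 57 were macrophages and none were tuft cells. Without them the level of Hpgds in library 1 macrophages was 253 CPM, against 254 CPM with them, where CPM is the gene's UMIs per 1000000 UMIs of the class. A stricter filter also dropped macrophages with UMIs of at least 2 genes of microglia, the macrophages of the brain. It removed 140 of 473 macrophages in library 1, and 28 and 26 in libraries 2 and 3. In library 1 Hpgds was then 249 CPM, and Alox5ap rose from 259 CPM (241 to 278) to 295 CPM (272 to 320). The origin of these cells was not tested.

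Tuft cells were gated without any of the 10 genes. A cell needed UMIs of at least 3 of 9 core markers (Avil, Sh2d6, Sh2d7, Rgs13, Hmx2, Hmx3, Bmx, Gfi1b, Spib), a UMI of Epcam, Krt8 or Krt18, and core markers at 1500 CPM or more. This gave 43 cells, 16, 7 and 20 in libraries 1, 2 and 3, or 0.172% of kept cells (exact 95% interval 0.125 to 0.232%). Their summed depth was 337608 UMIs and their median depth 5116 UMIs per cell, against 13482 in the 9519 epithelial-gated cells. All 9 core markers were detected, with a summed level of 4179 CPM in tuft-gated and 1.72 CPM in epithelial-gated cells, and the 12 epithelial markers summed to 12005 and 15991 CPM. A further 21 cells had enough core markers but at a level under 1500 CPM. They were deeper, with a median of 39200 UMIs, and carried Tff2, a trefoil factor of the ordinary epithelium, at 886 CPM, against 29.6 CPM in tuft-gated and 1111 CPM in epithelial-gated cells. They were kept apart, and the level requirement was set after their values were seen. Of the 21, 1, 2 and 18 were in libraries 1, 2 and 3, so the requirement bears mostly on the tuft number and levels of library 3. The share of RNA in them from a second cell was not tested.

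Markers of immune cells in the tuft gate were read gene by gene. Of 11 mast cell and basophil markers only Kit was found, with 81 UMIs. The 15 macrophage and monocyte markers summed to 957 CPM, of which Plac8 gave 94.1%, while C1qb, C1qc, Csf1r and Adgre1 had no UMI. The 10 T cell markers had 24 UMIs, all in 1 cell of library 2. Without that cell the tuft levels of the 10 genes lay between 69.3 CPM for Il17rb and 1554 CPM for Alox5ap, against 71.1 and 1564 CPM with it. The pan-leukocyte gene Ptprc is no marker of the tuft gate, and 28 of the 43 cells were left when cells with Ptprc or an immune gate were removed. In those 28 the levels were as high, with 1600 CPM for Alox5ap, 1242 CPM for Ltc4s and 844 CPM for Trpm5, against 1564, 1176 and 779 CPM in all 43. Mitochondrial RNA made up a median of 11.6% of UMIs in tuft-gated cells and 6% in epithelial-gated cells, and 27 of the 43 were over 10%. In the 16 at or under 10% the levels were 1392 CPM for Alox5ap, 944 CPM for Ltc4s and 701 CPM for Trpm5, and the same 7 genes had the highest interval in tuft; the part of RNA quality in the levels was not tested.

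All 10 genes were present in tuft-gated cells, where presence means at least 10 CPM and 20 UMIs, a level that 9.15% of all genes in the matrix reached. The tuft class had the highest CPM of 16 gated classes for 8 of the 10: all but Il17rb and Hpgds. Among genes with at least 50 UMIs in all, which leaves out Il25 with 36, tuft was the highest class for 11.2% of genes and for 7 of the 9 members tested. The tuft interval lay above that of every other class for 0.876% of genes and for the same 7 of the 9, namely Trpm5, Pou2f3, Dclk1, Alox5, Alox5ap, Ltc4s and Ptgs1. A level at least 4 times that of every other class was found for 1.14% of genes and for 5 of the 9, since Alox5ap and Ptgs1 dropped out.

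**Figure D1:**
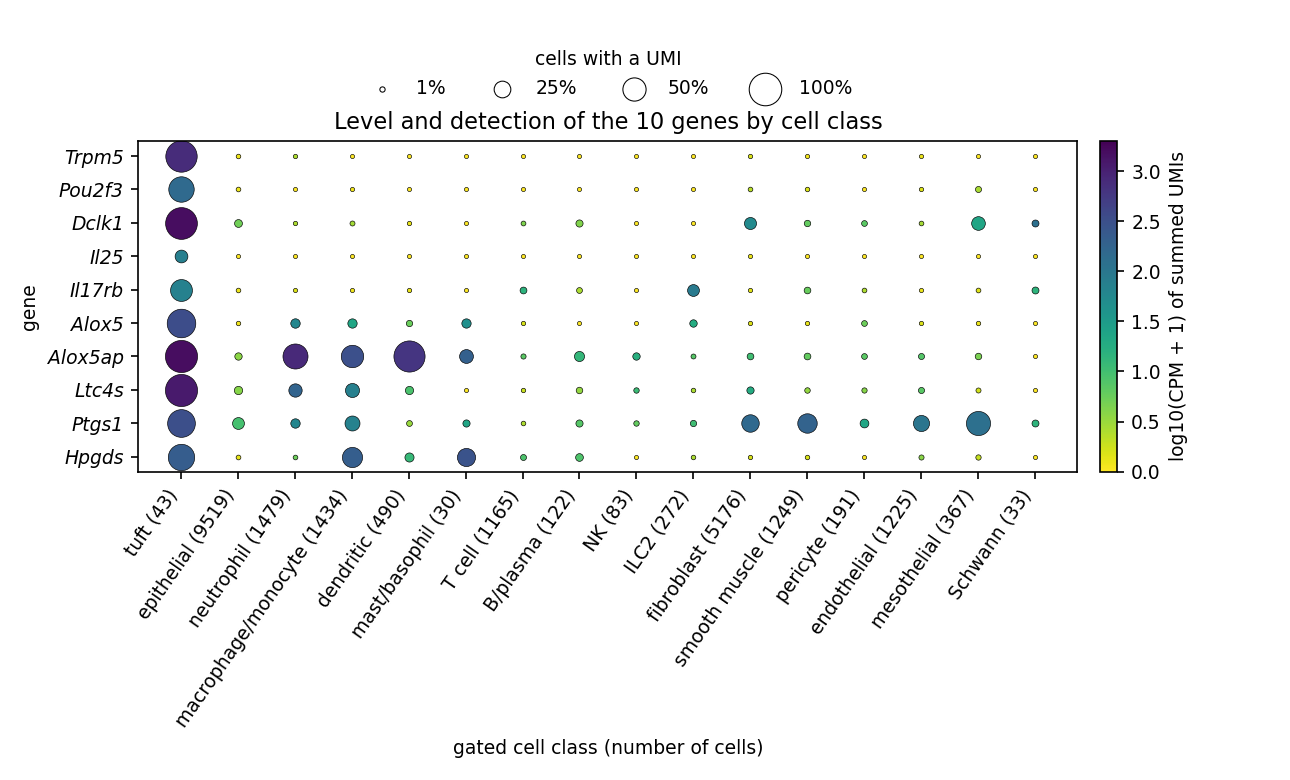
Each dot gives 1 gene (rows) in 1 gated cell class (columns, number of cells in brackets); colour is log10(CPM + 1) of the summed UMIs and size the share of cells with a UMI. The tuft column is filled for all 10 genes, Alox5ap is also dark in the myeloid columns, Ptgs1 in the stromal columns, Hpgds in macrophages and mast cells, and Il17rb in ILC2-gated cells.

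Sequences around the starts of these genes were read for the DNA words of factors named in tuft and blood cells. POU2F3, like other octamer-binding proteins, binds ATGCAAAT (ATTTGCAT on the other strand), and PU.1 and its relative SPIB bind words such as GAGGAAGT (ACTTCCTC). RefSeq promoter windows of build GRCm38.p6, from 250 bases before to 50 after the start of transcription, were at hand for 7 of the 10 genes. The octamer occurred in 1 of their 8 windows, that of Hpgds, 174 bases before the start, and in 1.74% of 32851 mouse promoter windows. GAGGAAGT occurred in Hpgds, 49 bases before the start, and in Ptgs1, 24 bases before it, and in 3.2% of all windows. Neither word overlapped the other in Hpgds. These positions count from the RefSeq start. The annotated Hpgds gene given below reaches further, to 65144908 on the minus strand, so both words in its window lie inside that gene. The Hpgds window is chr6:65144681-65144980 (minus strand) and the Ptgs1 window chr2:36230176-36230475 (plus strand). They are shown because both enzymes act in sequence on the prostaglandin D2 route. Ltc4s at chr11:50238483-50238782 (minus strand) and Trpm5 at chr7:143094593-143094892 (minus strand) are shown as highly tuft-biased genes with neither exact word. Only the exact letters were searched, not related words. The Ltc4s window holds AAGGAAGT, which differs from GAGGAAGT in its first base and is not marked. Capitals mark the words found, and each sequence runs 5′ to 3′.
Hpgds: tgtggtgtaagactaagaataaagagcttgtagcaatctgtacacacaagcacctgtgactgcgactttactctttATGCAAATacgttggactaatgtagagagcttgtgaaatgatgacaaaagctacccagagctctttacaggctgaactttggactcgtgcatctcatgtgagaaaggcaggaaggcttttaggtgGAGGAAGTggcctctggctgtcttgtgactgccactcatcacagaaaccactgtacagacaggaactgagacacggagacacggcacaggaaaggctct
Ptgs1: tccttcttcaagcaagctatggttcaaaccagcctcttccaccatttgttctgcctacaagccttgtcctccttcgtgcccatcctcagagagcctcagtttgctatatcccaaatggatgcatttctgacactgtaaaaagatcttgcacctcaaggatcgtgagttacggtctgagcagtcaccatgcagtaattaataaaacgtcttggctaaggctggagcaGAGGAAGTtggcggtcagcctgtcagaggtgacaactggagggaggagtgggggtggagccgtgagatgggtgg
Ltc4s: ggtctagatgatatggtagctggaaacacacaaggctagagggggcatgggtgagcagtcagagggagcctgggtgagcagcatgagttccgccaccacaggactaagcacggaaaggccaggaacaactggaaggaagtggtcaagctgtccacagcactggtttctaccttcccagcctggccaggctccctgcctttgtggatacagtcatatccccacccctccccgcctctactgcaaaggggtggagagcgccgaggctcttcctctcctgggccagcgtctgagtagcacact
Trpm5: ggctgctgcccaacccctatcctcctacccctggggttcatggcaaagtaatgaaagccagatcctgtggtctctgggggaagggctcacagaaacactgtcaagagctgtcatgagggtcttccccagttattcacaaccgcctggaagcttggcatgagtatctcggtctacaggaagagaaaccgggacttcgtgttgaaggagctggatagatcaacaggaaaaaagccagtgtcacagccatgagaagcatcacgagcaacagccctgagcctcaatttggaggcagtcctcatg
A match is a description of these letters only. No window was read for Pou2f3, Il25 or Alox5ap.

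Trpm5 (ENSMUSG00000009246), on chromosome 7 at 143069153 to 143094642 of GRCm38, minus strand, encodes the calcium-activated channel that depolarises taste and tuft cells. Its level in tuft-gated cells was 886, 968 and 661 CPM in libraries 1, 2 and 3, and 40 of the 43 cells had a UMI. In epithelial-gated cells it was 0.125, 0.137 and 0.554 CPM, and 0.378% of cells had a UMI. Every tuft library stood above every epithelial library. Over all libraries Trpm5 stood at 779 CPM (interval 688 to 879) in tuft-gated cells and 0.207 CPM (0.145 to 0.287) in epithelial-gated cells, a ratio of 3756 (2644 to 5480). The next class was the neutrophils at 1.52 CPM, from 3 UMIs, with an interval of 0.313 to 4.44 CPM that lay above that of epithelial-gated cells. Each of the 15 classes below tuft overlapped its neighbour in the order. Lymphoid cells had no UMI of Trpm5 in 1642 cells, which at 3 counts allows a share of cells with a UMI of up to 0.183%, and sets no limit on cells that express it below detection. Of all 394 Trpm5 UMIs, 66.8% were in the 43 tuft-gated cells and 18.5% in the 21 cells set apart.

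Pou2f3 (ENSMUSG00000032015; chromosome 9, 43123939 to 43210369, minus strand) encodes the transcription factor that tuft cells need to form. Its tuft level was 127, 323 and 133 CPM in libraries 1, 2 and 3, resting on 17, 10 and 23 UMIs, with overlapping intervals. The epithelial level was 0.498, 0.116 and 0.293 CPM. Pooled, these were 148 CPM (110 to 195) and 0.254 CPM (0.184 to 0.34), a ratio of 584 (382 to 897). A UMI was found in 26 of 43 tuft-gated cells, and 24 of the 43 had UMIs of both Trpm5 and Pou2f3. Mesothelial cells followed at 1.7 CPM and fibroblasts at 1.25 CPM. Tuft-gated cells held 32.5% of all Pou2f3 UMIs and the far more numerous epithelial-gated cells 28.6%. Without library 2 the tuft interval no longer lay above that of every class, and over all libraries the upper limit of mast cells and basophils, which had no UMI, was 80.8 CPM. Nor did it with the 21 cells set apart added to the tuft gate, where the log2 ratio to mesothelial cells was 4.47.

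Dclk1 (ENSMUSG00000027797; chromosome 3, 55242364 to 55539068, plus strand), a microtubule-associated kinase and a widely used tuft marker in mouse gut, was detected in 41 of 43 tuft-gated cells. It reached 1982, 1678 and 1160 CPM in libraries 1, 2 and 3, and the interval of library 3 (1005 to 1333) lay below that of library 1 (1751 to 2235). In fibroblasts it stood at 56.5, 36.3 and 58 CPM. Pooled, tuft-gated cells had 1534 CPM and fibroblasts 52.6 CPM, a ratio of 29.2 (26.2 to 32.5). Schwann-gated cells ranked between them at 124 CPM, but all 9 of their UMIs came from 1 of 33 cells. Mesothelial cells followed at 21.8 CPM (17.5 to 26.8), and epithelial-gated cells had 4.13 CPM. Tuft-gated cells held 19.6% of all Dclk1 UMIs, fibroblasts 38.2% and epithelial-gated cells 27%. Within fibroblasts, cells with a UMI of Pi16, a marker of adventitial fibroblasts, had Dclk1 at 70.4 CPM (65.1 to 76), and cells without had 36.3 CPM (32.6 to 40.2); this split was chosen after values were seen. A UMI of Dclk1 was found in 4.28% of epithelial-gated cells at a median depth of 13482 UMIs, and in 0.441% of myeloid cells at 1748 UMIs. Thinned to 1000 UMIs per cell, the share was 76.2% in tuft-gated cells, 0.444% (0.32 to 0.599%) in epithelial-gated cells and 0.245% (0.0899 to 0.532%) in myeloid cells, so the epithelial and myeloid shares overlapped at equal depth.

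**Figure D2:**
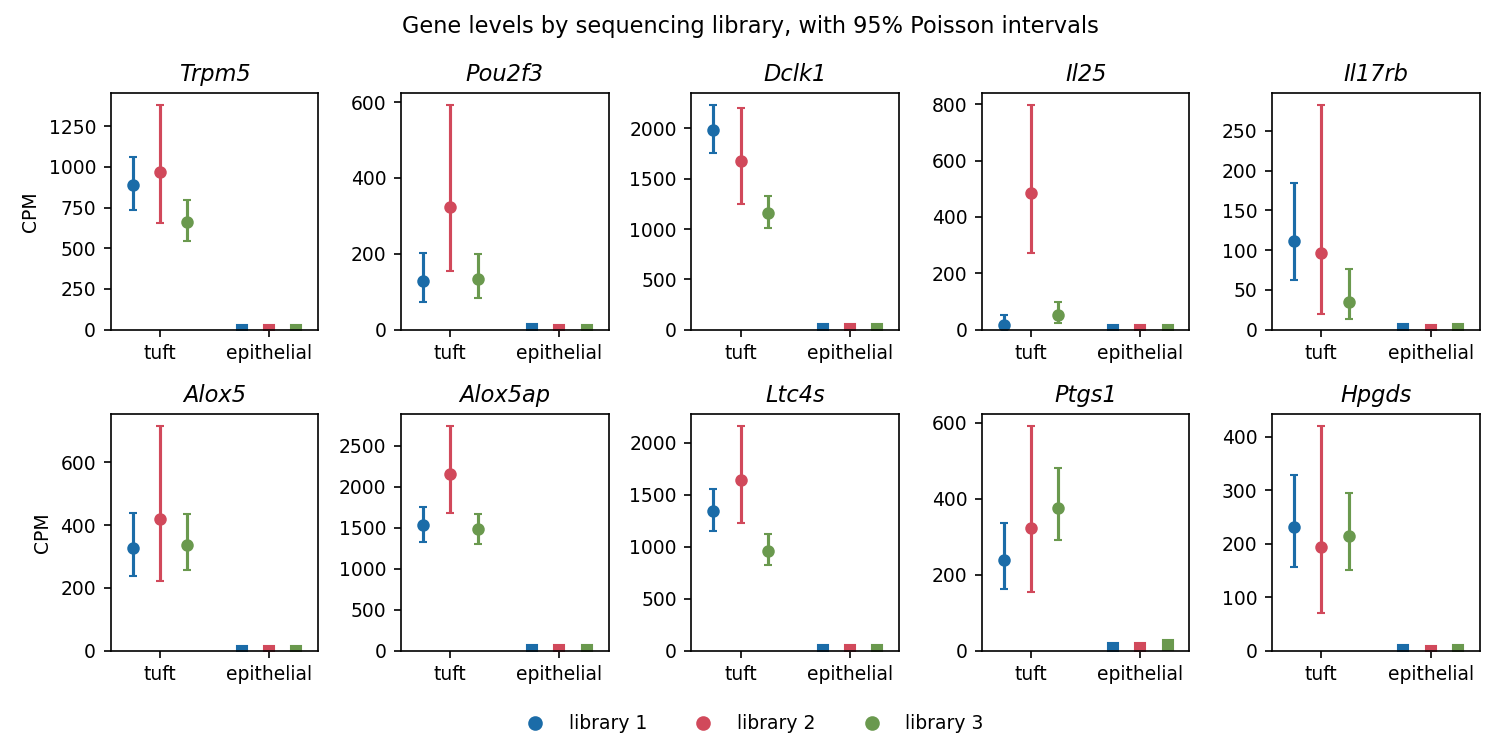
CPM of each gene (1 panel each) in tuft-gated and epithelial-gated cells, with 1 point per library and 95% Poisson intervals of the summed UMIs; libraries are not tied to exposure groups. All tuft points lie above all epithelial points, and the point of library 2 for Il25 at 484 CPM rests on 1 cell.

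Il25 (ENSMUSG00000040770; chromosome 14, 54932695 to 54935837, plus strand) encodes the alarmin by which tuft cells activate group 2 innate lymphoid cells. Of 24993 kept cells, 16 had a UMI, 6 of them tuft-gated, 4 among the cells set apart, 5 fibroblasts and 1 of ambiguous class. In tuft-gated cells the level was 14.9, 484 and 52.2 CPM in libraries 1, 2 and 3, from 1, 1 and 4 positive cells. One cell of library 2 gave 15 of the 26 UMIs, and without it the tuft level was 33.8 CPM, against 77 CPM (50.3 to 113) with it. Epithelial-gated cells had no UMI in 9519 cells, which allows a share of cells with a UMI of up to 0.0315%. A UMI was missing from most tuft-gated cells too, so these shares do not count the cells that express Il25.

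Il17rb (ENSMUSG00000015966; chromosome 14, 29996135 to 30008896, minus strand) encodes the interleukin-25 receptor subunit, carried by innate lymphocytes and by tuft cells themselves. Its tuft level was 112, 96.8 and 34.8 CPM in libraries 1, 2 and 3, and 19 of 43 cells had a UMI. In ILC2-gated cells, taken as cells with group 2 innate lymphoid markers and no Cd3d, Cd3e or Cd3g (an exclusion set after values were seen), it was 172, 19.1 and 83.4 CPM. Both classes ranged widely between libraries and overlapped. Pooled, the tuft level was 71.1 CPM (45.5 to 106) and the ILC2 level 89.4 CPM (67.6 to 116), a ratio of 0.795 (0.471 to 1.3). T cells followed at 14.2 CPM. Within them, the 277 cells with a UMI of Gata3, the master factor of type 2 lymphocytes, had 25.8 CPM (16.4 to 38.7), and the 888 without had 9.95 CPM (6.37 to 14.8). By library these were 31.7, 15.9 and 41.8 CPM with Gata3, and 12.1, 8.24 and 14.1 CPM without. The intervals of both sets overlapped in every library. The 184 T cells with a UMI of Trdc, a gamma-delta receptor chain, had no Il17rb UMI, with an upper limit of 6.85 CPM. T cells without Trdc had 17 CPM (12.5 to 22.6). Within each library the intervals of these sets overlapped as well. Both T cell splits were chosen after values were seen. Tuft-gated cells held 9.16% of all Il17rb UMIs and lymphoid cells together 40.1%. Ligand and receptor were found together in 4 tuft-gated cells and in no other gated class.

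The 3 genes of the 5-lipoxygenase route were each highest in tuft-gated cells. Alox5 (ENSMUSG00000025701; chromosome 6, 116410077 to 116461178, minus strand) encodes 5-lipoxygenase, which begins leukotriene synthesis. In tuft-gated cells it stood at 328, 419 and 336 CPM in libraries 1, 2 and 3, within overlapping intervals, and 33 of 43 cells had a UMI. Neutrophils, a classical leukotriene source, had 52.9, 61.1 and 64.2 CPM. The libraries of both classes were well apart, and the pooled ratio of 341 to 58.2 CPM was 5.85 (4.48 to 7.65). Mast cells and basophils (43.8 CPM, from 2 UMIs) did not differ beyond their interval from neutrophils or macrophages (21 CPM), and ILC2-gated cells at 17.6 CPM overlapped macrophages. Epithelial-gated cells had 0.167 CPM. With the 21 cells set apart added to the tuft gate, the log2 ratio to neutrophils was 1.27. The tuft interval then no longer lay above all others.

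Alox5ap (ENSMUSG00000060063; chromosome 5, 149264767 to 149288153, plus strand) encodes FLAP, which hands arachidonic acid to 5-lipoxygenase. It was detected in 42 of 43 tuft-gated cells, at 1535, 2162 and 1479 CPM in libraries 1, 2 and 3. Neutrophils had 724, 924 and 835 CPM, and dendritic cells 570, 703 and 475 CPM. Every tuft library was above every neutrophil and dendritic library. Pooled, tuft-gated cells had 1564 CPM (1433 to 1703) and neutrophils 819 CPM (780 to 860), a ratio of 1.91 (1.73 to 2.11). Dendritic cells at 608 CPM and macrophages at 311 CPM came next, each apart from the class above. Tuft-gated cells held 6.74% of all Alox5ap UMIs and the 3403 myeloid cells 72%. When the 21 cells set apart were added to the tuft gate, the order with neutrophils turned, with a log2 ratio of -0.33.

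Ltc4s (ENSMUSG00000020377; chromosome 11, 50236461 to 50238616, minus strand) encodes leukotriene C4 synthase, which joins leukotriene A4 to glutathione. It was found in 42 of 43 tuft-gated cells, at 1341, 1645 and 963 CPM in libraries 1, 2 and 3. Neutrophils had 160, 178 and 207 CPM, and macrophages and monocytes 85.6, 61.7 and 65.5 CPM. Each tuft library stood far above each myeloid library, and pooled the ratio of 1176 to 176 CPM over neutrophils was 6.68 (5.77 to 7.73). Epithelial-gated cells had 3.03 CPM. Within the neutrophil gate, 205 cells with a UMI of Siglecf or Ccr3 had Ltc4s at 350, 455 and 421 CPM in libraries 1, 2 and 3, and 1274 cells without had 105, 129 and 164 CPM. The libraries of both sets did not overlap, and pooled they stood at 394 CPM (333 to 464) and 126 CPM (109 to 145). Siglecf and Ccr3 are surface genes of eosinophils, and Siglecf also occurs on some tissue neutrophils. The eosinophil granule and receptor genes Epx, Prg2 and Il5ra had no UMI in the whole neutrophil gate. S100a8, a neutrophil marker, stood at 3980 CPM in the cells with Siglecf or Ccr3 and 10850 CPM in those without. Csf3r, another marker of the neutrophil gate, stood at 1008.5 and 1278 CPM. Its intervals in both sets overlapped in libraries 2 and 3, but not in library 1, at 732 and 1147 CPM. This split was chosen after values were seen. Siglecf was also found in 23 of the 43 tuft-gated cells, and Ccr3 in none.

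**Figure D3:**
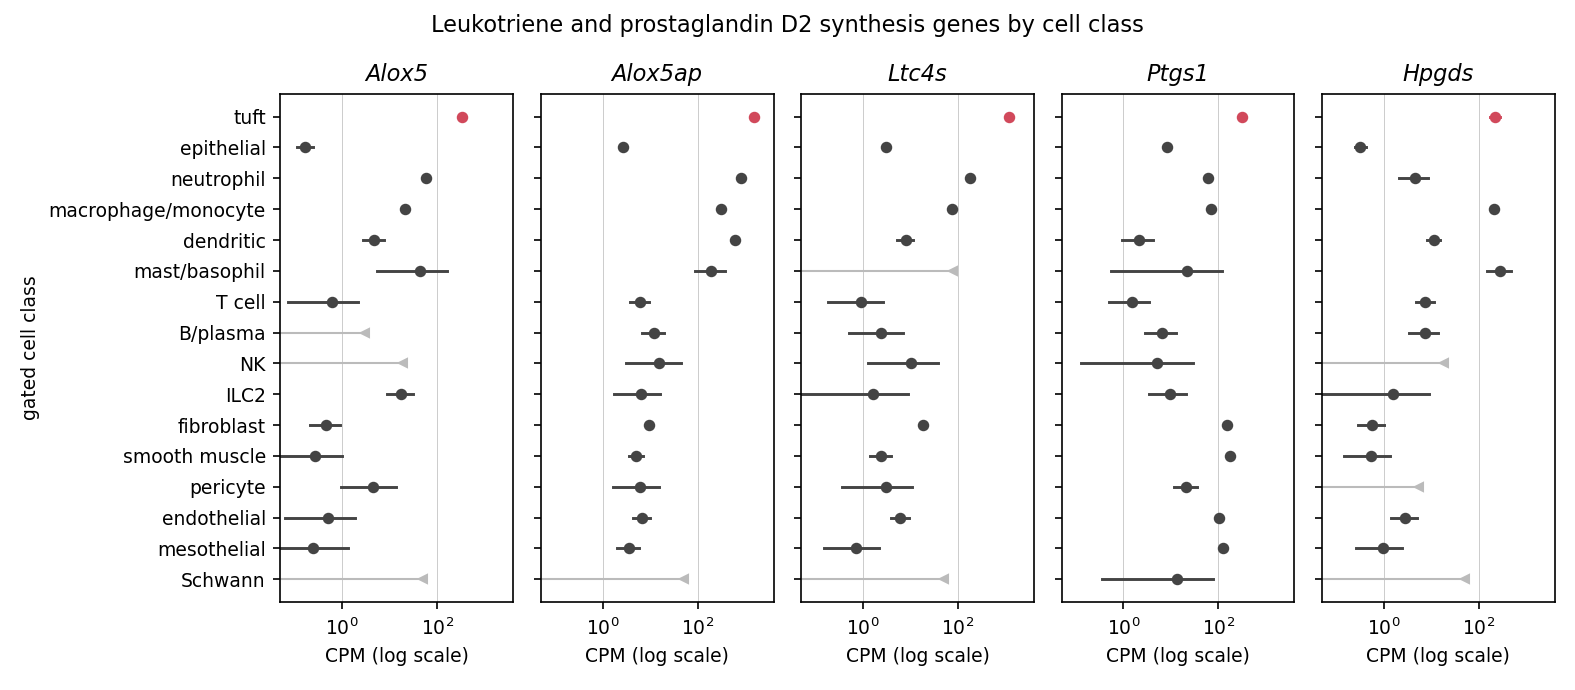
CPM on a log axis of the 5 eicosanoid synthesis genes in each gated class, with 95% Poisson intervals; grey arrows mark classes without a UMI at the upper end of their interval. Tuft (red, top row) is highest for Alox5, Alox5ap, Ltc4s and Ptgs1, and overlaps mast cells and macrophages for Hpgds.

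On the prostaglandin route, Ptgs1 (ENSMUSG00000047250; chromosome 2, 36230426 to 36252272, plus strand) encodes cyclooxygenase-1. Its tuft level was 238, 323 and 377 CPM in libraries 1, 2 and 3, and 31 of 43 cells had a UMI. Smooth muscle had 138, 155 and 212 CPM, and fibroblasts 163, 195 and 120 CPM. The tuft value was above both stromal classes in each library. Its interval overlapped that of fibroblasts in libraries 1 and 2, and that of smooth muscle in library 2. Pooled, tuft-gated cells had 317 CPM (260 to 383) and smooth muscle 180 CPM (170 to 189), a ratio of 1.77 (1.44 to 2.15). Fibroblasts at 151 CPM, mesothelial cells at 123 CPM and endothelial cells at 102 CPM followed. The intervals of mesothelial and endothelial cells overlapped at their edges. Without library 3 the tuft interval no longer lay above all others, and with the 21 cells set apart the log2 ratio to smooth muscle was -0.25. Tuft-gated cells held 1.38% of all Ptgs1 UMIs and fibroblasts 37.3%.

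Ptgs1 was not even among fibroblasts. Cells with a UMI of Ccl11, the chemokine eotaxin, had 182, 217 and 204 CPM in libraries 1, 2 and 3, and cells without had 42, 81 and 58.3 CPM. Cells with Cilp or Smoc2, matrix genes of another fibroblast set, had 44.2, 33 and 45.6 CPM, and cells without had 193, 223 and 204 CPM. In both splits the sets did not overlap in any library. Cells with a UMI of Ccl11 were deeper, with a median of 3668 UMIs against 1867 in cells without, while cells with Cilp or Smoc2 had a median of 2328 UMIs and cells without 2876. Both splits were chosen after values were seen.

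Hpgds (ENSMUSG00000029919; chromosome 6, 65117293 to 65144908, minus strand) encodes hematopoietic prostaglandin D synthase. Its tuft level was 231, 194 and 215 CPM in libraries 1, 2 and 3, and 28 of 43 cells had a UMI. Macrophages and monocytes had 254, 205 and 132 CPM. The tuft libraries were alike within counting error, and in macrophages library 3 lay below the other libraries. Tuft-gated cells had 219 CPM (172 to 275), mast cells and basophils 285 CPM (152 to 487) from 13 UMIs in 30 cells, and macrophages 214 CPM (203 to 227), so these classes could not be ordered. The tuft to macrophage ratio was 1.02 (0.798 to 1.29). Dendritic cells had 11.2 CPM and epithelial-gated cells 0.323 CPM. Tuft-gated cells held 4.73% of all Hpgds UMIs and macrophages 79%.

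**Figure D4:**
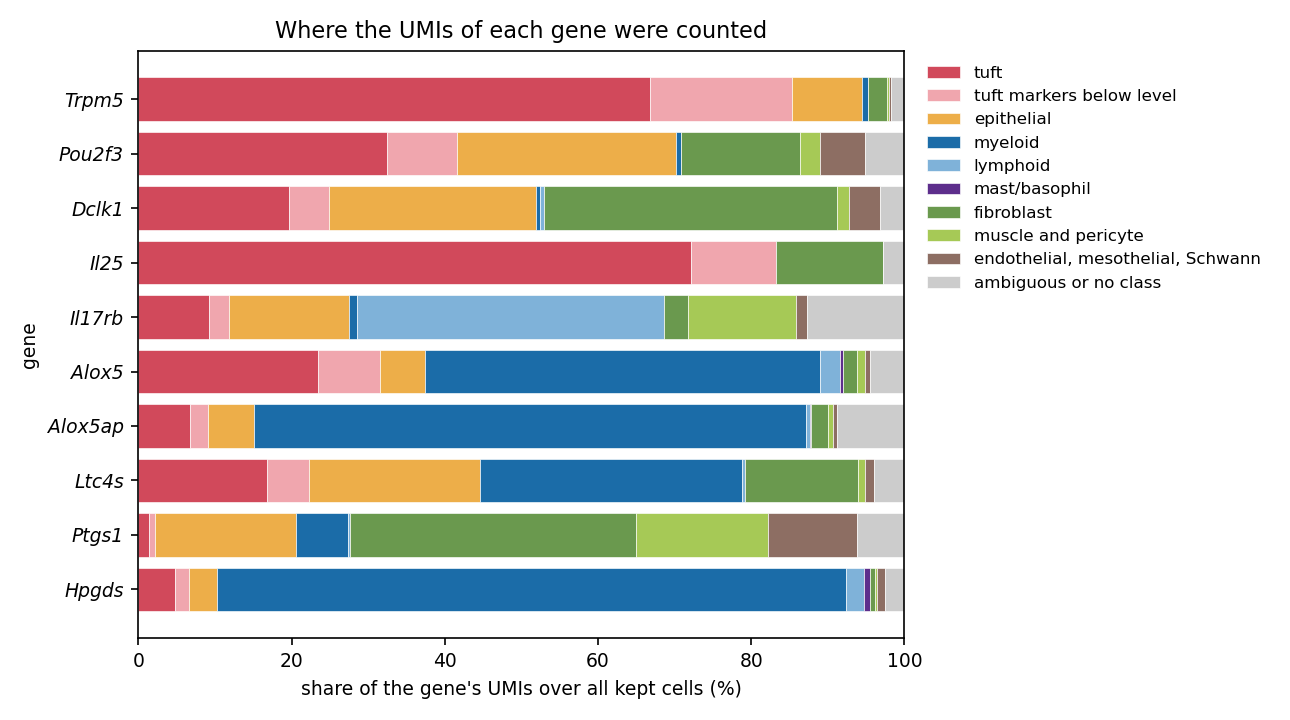
Share of each gene's UMIs over all kept cells (x axis, percent) by the class they were counted in. Tuft-gated cells give 66.8% of Trpm5 and 72.2% of Il25, but 6.74% of Alox5ap and 1.38% of Ptgs1, whose UMIs come mostly from myeloid and stromal cells.

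Whole synthesis routes were then looked for within single cells. Alox5, Alox5ap and Ltc4s were all found in 32 of 43 tuft-gated cells (74.4%, interval 58.8 to 86.5%), in 1.88% of macrophages and in 0.879% of neutrophils. By library this was 12 of 16, 7 of 7 and 13 of 20 tuft-gated cells. With every cell thinned to 1000 UMIs the share was 19% of 42 tuft-gated cells, 0.0892% of 1121 macrophages and 0.474% of 843 neutrophils, which leaves 1, 313 and 636 shallower cells out. By library, thinned tuft-gated cells with the whole route numbered 0 of 16, 3 of 7 and 5 of 19, so library 1 had none at equal depth. Ptgs1 and Hpgds were found together in 20 of 43 tuft-gated cells and in 11.6% of macrophages, and after thinning in 4.76% (0.582 to 16.2%) and 1.87% (1.16 to 2.85%), where the intervals overlap. All 5 enzymes were found in 18 tuft-gated cells, in 10 of 1434 macrophages, all of library 1, and in no neutrophil, dendritic, epithelial, fibroblast or lymphoid cell; after thinning they were found in 1 of 42 tuft-gated cells and in no macrophage. Trpm5, Alox5ap and Ltc4s were found together in 39 tuft-gated cells and in no myeloid cell. Of the 43 tuft-gated cells, 42 had UMIs of at least 4 of the 10 genes, 20 of at least 8, and 3 of all 10.

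**Figure D5:**
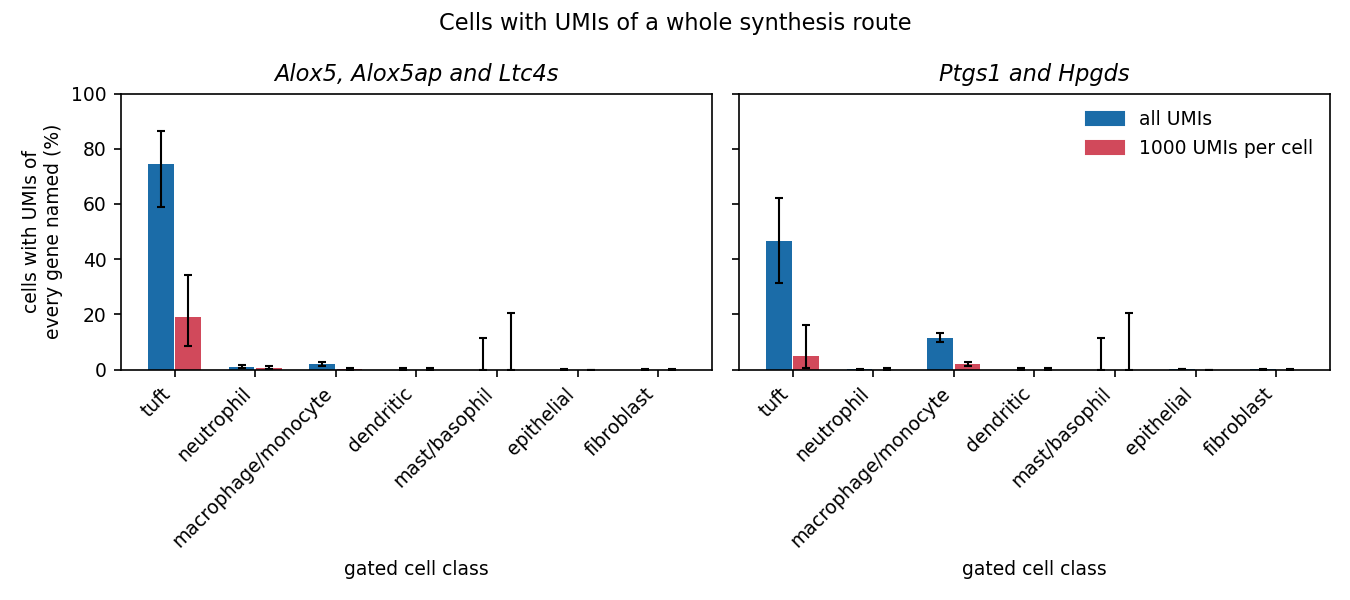
Share of cells (percent, with exact 95% intervals) that had a UMI of every gene of a synthesis route, from all UMIs (blue) and from cells thinned to 1000 UMIs (red). For the leukotriene route tuft-gated cells stand at 74.4% and 19%; for the prostaglandin D2 route they stand at 46.5% and 4.76%, and after thinning their interval overlaps that of macrophages.

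The other genes of these pathways were counted from fixed lists, by the same presence rule that 9.15% of all genes met in tuft-gated cells. In their 337608 UMIs the minimum of 20 UMIs asks for 59.2 CPM, while deeper classes need 10 CPM, so other classes were read at 59.2 CPM as well, a choice made after seeing the data. At that level 9.15% of all genes were present in tuft-gated, 8.33% in epithelial-gated, 7.68% in myeloid, 7.76% in macrophage, 7.28% in lymphoid, 8.17% in ILC2-gated and 8.85% in fibroblast cells. At the 10 CPM minimum it was 25% in epithelial-gated cells, 23.5% in myeloid cells, 23.9% in macrophages and in lymphoid cells, and 27.4% in fibroblasts. Of 16 genes of taste-type signalling, 4 were present: Gng13, the G protein gamma subunit of taste cells, at 2008 CPM, Itpr2, a calcium release channel, at 521 CPM, Gnb1, a widely used G protein beta subunit, at 240 CPM and Gnat3, gustducin, at 77 CPM. Gnb1 was higher in other classes, with 465 CPM in endothelial cells. Present at 59.2 CPM were 2 of the 16 in epithelial-gated cells, Gnb1 and Itpr3, 2 in lymphoid cells, and Gnb1 alone in myeloid cells and in fibroblasts; at the 10 CPM minimum the count in epithelial-gated and in lymphoid cells was 4 as well. Gng13 had 2421, 1678 and 1746 CPM in libraries 1, 2 and 3, and no other class exceeded 2.53 CPM. Plcb2, the phospholipase of the cascade, had 10 UMIs in tuft-gated cells, and the succinate receptor gene Sucnr1 and the bitter receptor genes Tas2r105 and Tas2r108 had none. For a gene without a UMI in tuft-gated cells the upper limit was 10.9 CPM. Of 9 other tuft effectors and regulators, 6 were present, among them Cd24a at 1958 CPM, Etv1 at 415 CPM, Pik3cg at 296 CPM and Il13ra1, an interleukin-13 receptor chain, at 234 CPM. At 59.2 CPM, 4 of the 9 were present in epithelial-gated cells, where Cd24a stood at 1498 CPM, 3 in myeloid cells and 2 in macrophages; at the 10 CPM minimum macrophages had 6 and epithelial-gated cells 5. Chat, the acetylcholine synthesis enzyme, missed the rule with 15 UMIs, which came from all 3 libraries at 29.8, 64.5 and 52.2 CPM, and every other class had at most 0.257 CPM.

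Of 21 further eicosanoid synthesis genes, 5 were present in tuft-gated cells. At the same 59.2 CPM, 6 were present in fibroblasts and 3 each in myeloid and epithelial-gated cells. At the 10 CPM minimum the counts were 11 in fibroblasts, 9 in myeloid cells and 9 in epithelial-gated cells. Mgst3, a microsomal glutathione transferase related to Ltc4s, was highest in tuft-gated cells at 453 CPM, with 265 CPM in epithelial-gated cells. Ptgs2, the inducible cyclooxygenase, had 80 CPM in tuft-gated cells, 1326 CPM in neutrophils and 874 CPM in fibroblasts. Pla2g4a, the phospholipase that frees arachidonic acid, had 77 CPM in tuft-gated cells and 99.6 CPM in fibroblasts. Ptges and Tbxas1, which make prostaglandin E2 and thromboxane, had no UMI in tuft-gated cells, and stood at 93.8 CPM in pericytes and 75.4 CPM in macrophages. Lta4h, which turns leukotriene A4 into leukotriene B4, had 4 UMIs there. Genes that process leukotriene C4 outside the cell lay elsewhere: Dpep1 at 267 CPM in fibroblasts with no tuft UMI, and Ggt5 at 49.6 CPM in neutrophils and 44.2 CPM in fibroblasts with 1 tuft UMI.

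No eicosanoid receptor of 14 was present in tuft-gated cells, whose summed level for the list was 26.7 CPM. ILC2-gated cells had 5 of the 14 present, where 13.8% of all genes met the rule, and summed to 339 CPM; 3 of the 14 reached 59.2 CPM, among them Ltb4r1 and Ptgir. They carried both cysteinyl leukotriene receptors, Cysltr2 at 47.9 CPM and Cysltr1 at 46.3 CPM, with the leukotriene B4 receptor Ltb4r1 at 84.7 CPM and the prostacyclin receptor Ptgir at 63.9 CPM. Cysltr1 had 43.5 CPM in macrophages, and Cysltr2 was highest in pericytes, at 63.6 CPM. Ptger4, a prostaglandin E2 receptor, was highest in dendritic cells at 214 CPM. The prostaglandin D2 receptors Ptgdr and Ptgdr2 reached at most 0.506 and 0.728 CPM in any class. Small classes set only loose limits here: a count of 0 allowed up to 5.89 CPM in ILC2-gated cells and 80.8 CPM in mast cells and basophils.

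Of 12 further genes of the alarmin and type 2 list, none was present in tuft-gated cells. The alarmins Il33 and Tslp each had 1 tuft UMI and were highest in mesothelial cells, at 120 CPM, and fibroblasts, at 47.9 CPM. ILC2-gated cells had the output cytokines Il5 at 519 CPM, Il13 at 193 CPM and Areg at 585 CPM. Il5, Il13 and Areg are markers of the ILC2 gate itself, so their high level there is built into the gate and is no separate result. Mast cells and basophils had Il4 at 438 CPM and Il13 at 263 CPM, from 20 and 12 UMIs.

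Genes with a pattern most like each member were found by Pearson correlation of log2(CPM + 1) over 42 profiles of a class in a library, among 15711 genes. These are descriptions, since profiles share libraries and depth. Trpm5 was most like Gng13 (0.98) and Cdhr2 (0.98), a protocadherin of brush border microvilli that had 278 CPM in tuft-gated cells and at most 0.257 CPM elsewhere. Pou2f3 and Il25 were most like Cdhr2 and 1810046K07Rik, and Dclk1 like Kcnq3 and Inpp5j. Il17rb was most like Sv2c (0.88) and Chdh (0.80). Chdh lies 127 bases from Il17rb on the opposite strand, with no overlap of the annotated genes. Alox5 was most like Siglecf and Matk (both 0.80), Alox5ap like Ptpn6 and Gm9530, Ltc4s like the myeloid lectin genes Clec4a1 and Clec5a, Ptgs1 like Rock2 and Rtn4, and Hpgds like Pik3cg and Blnk. The highest correlations of the sensing genes were 0.85 to 0.98, and those of the 5 enzymes 0.75 to 0.84.

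The annotated exons of 6 members share bases with a gene on the opposite strand: Trpm5 with Tssc4, Il17rb with Actr8, Ltc4s with Gm26542, Alox5ap with Gm19719, Dclk1 with Gm21954 and Gm42609, and Ptgs1 with Gm43621. Whether the counting used strand is not stated in the sources used here, so reads in those stretches could not be assigned with certainty.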

How the data were processed

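Whole-number UMI counts per gene and cell barcode were deposited by the authors as 1 matrix of 3 libraries; per the submitters' processing notes it was made with Cell Ranger 6.1.1 on GRCm38 (mm10). Barcodes with at least 300 genes, at most 20% mitochondrial UMIs and a Scrublet score of at most 0.25 (scanpy 1.11.5, expected rate 6%) were kept: 1015 fell to the gene minimum, 668 to the mitochondrial limit and 1024 to the doublet score. Classes were gated on marker genes that exclude the 10 genes described. A tuft cell needed 3 of 9 core markers, an epithelial marker and 1500 CPM of core markers, an epithelial cell 6 markers, and most other classes 3, at 1.5 times the next lineage. Lineage gates other than tuft also left 825 ambiguous cells and 1269 without a class. Counts were summed per class and library and given as CPM with exact Poisson 95% intervals, and shares with Clopper-Pearson intervals (scipy 1.17.1). For a count of 0, limits on shares of cells allowed up to 3 counts. Limits in CPM were the upper end of the exact Poisson interval. No test was run, since no label ties a library to a group and each group has 1 pool. Per the labels, each library pools 10 gallbladders. Summed UMIs were 72943584, 121349261 and 58172348 in libraries 1, 2 and 3. The genes, marker lists and pathway lists were chosen with earlier results of these data known. Named genes were all members, the 3 highest of each list in the class where the list sums highest, list genes highest in tuft cells, and the 2 genes most like each member; others were named after their values were seen. Gates and CPM were tested on simulated counts. Leaving out libraries, other filters, gates and weightings were tried.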

Additional observations from a re-analysis of the deposited data

How the results depend on the processing

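No paired analysis was possible because the labels map no library to a group and each group has 1 pool. The number of tuft-gated cells was 43, and it was 16 with a mitochondrial limit of 10%, 28 without Ptprc or immune-gated cells, and 23, 27 or 36 without library 3, 1 or 2. Without library 2 there were 3100 epithelial, 2072 myeloid and 629 lymphoid cells, since that library is the largest. The members highest in tuft numbered 6 to 9, and those with the tuft interval above all others 6 or 7, except with no minimum level of the core markers, an alternative chosen after seeing the data. That gate took in the 21 deep cells set apart, held 64 cells and left 3 such members. The log2 ratio of tuft to the highest other class then turned to -0.33 for Alox5ap and -0.25 for Ptgs1. For Alox5 and Pou2f3 it stayed positive, at 1.27 and 4.47, but their tuft interval no longer lay above all others. Tuft-gated cells with 20 UMIs of a gene are at 59.2 CPM, so lower genes of the lists could not pass the presence rule there. Over the alternatives, 461 of 560 gene levels by class, 427 of 520 shares of positive cells and 43 of 60 tuft levels by library stayed within their 95% interval, and 98 of 125 counts of pathway genes stayed within 1.5 times.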
